A study of Mus musculus with 6 samples.

Results

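Complement is a cascade of plasma proteins that tags particles for uptake and releases small peptides which call in and activate leukocytes. The 9 genes described here are the complement components C1qa, C1qb, C1qc, C3, Cfb and Cfp and the anaphylatoxin receptors C3ar1, C5ar1 and C5ar2. They were taken by their symbols, with no measured value used, and each had 1 row among the 46072 gene identifiers of the expression matrices. Expression was measured by polyA RNA-Seq in monocytes from the spleens of female C57BL/6 mice, the common inbred laboratory strain, with no genetic change named in the labels. In the Van group, 3 mice received vancomycin by oral gavage, 2 mg a day given as 2 gavages of 1 mg, for 6 days. In the control (Con) group, 3 mice received water by gavage in place of vancomycin. All mice were then rested without antibiotic, for 6 to 8 days per the labels (8 days where the text on the RNA-Seq groups gives it), and the cells were not stimulated. Vancomycin is an antibiotic against Gram-positive bacteria that is poorly absorbed from the gut, and the question was how gut treatment followed by rest altered gene expression in monocytes outside the gut. The monocytes were isolated by magnetic removal of other cells, so cells that the removal missed contributed RNA as well. Each library is 1 biological replicate, and comparisons of the groups rest on 3 mice per group.

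Complement is activated by 3 routes that meet at C3. In the classical route, C1q, assembled from the chains A, B and C encoded by C1qa, C1qb and C1qc, binds antibody complexes, dying cells and other surfaces. In the alternative route, factor B (Cfb) joins C3b to form a convertase, which properdin (Cfp) stabilizes. Cleavage of C3 and C5 releases C3a and C5a, which act on the receptors encoded by C3ar1 and C5ar1, while C5ar2 encodes a second C5a receptor that binds arrestin and couples poorly to G proteins. Most plasma C3 and factor B come from the liver, whereas C1q and properdin come largely from macrophages, monocytes and other leukocytes, and tissue macrophages of the spleen are a known source of C1q.

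The libraries held between 43383919 and 61834407 estimated counts. Of 16138 genes tested with edgeR, 174 were higher and 148 lower after vancomycin at an adjusted p of at most 0.05, and 2664, or 16.5%, had an unadjusted p under that value. The 12 monocyte markers summed to 24650 to 25140 CPM (counts scaled to a common library total) in the Con group and 24350 to 24690 in the Van group, and Csf1r, the receptor for the monocyte growth factor CSF1, stood at 583 FPKM (fragments per kilobase of transcript, scaled to library size) on average. Of the 12, 6 were higher and 6 lower by fold change, with the Van libraries wholly above for 2 and wholly below for 3 (22.5% of all genes had groups that did not overlap). Within that list Ccr2, the chemokine receptor of classical monocytes, was lower in the Van group by edgeR (log2 fold change -0.83, adjusted p = 0.0283), and so was the Fc receptor gene Fcgr1 (log2 fold change -0.32, adjusted p = 0.0328), while Ly6c2, the classical monocyte surface marker (-0.34, 0.240), did not pass. Cd14 (0.28), Fcgr4 (0.41), Treml4 (0.19), Ace (0.19), Nr4a1 (0.11) and Csf1r (0.08) had log2 fold changes above 0. Those of Cx3cr1 (-0.17, all Van libraries below all Con libraries), Spn (-0.14) and Lyz2 (-0.10) were below 0, and none of these genes passed. The erythroid marker sum was 69.3 to 146 CPM in the Con group and 239 to 530 CPM in the Van group, the stromal sum 58.5 to 73.2 and 105 to 182 CPM, and the natural killer cell sum 26.4 to 39.5 and 14.9 to 22.0 CPM. The stromal sum was mostly Pecam1 (57.9 and 128 CPM on average), with 3 of its genes higher and 3 lower by fold change, and the natural killer cell sum was mostly Klrk1 (31.4 and 16.8 CPM). The erythroid genes, Pecam1, Klrk1 and the 2 monocyte genes moved with the groups, and their part in the results below was not tested. In bulk RNA, a change in the number of cells of a type and a change in RNA per cell cannot be told apart.

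**Figure D1:**
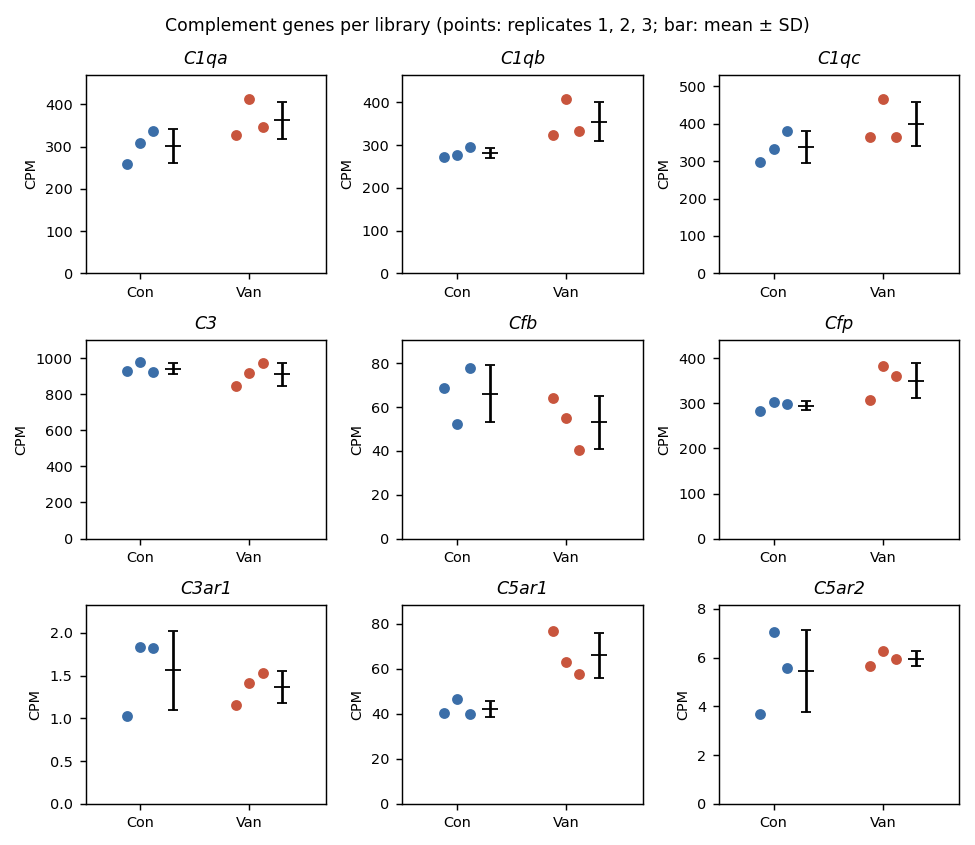
Expression of the 9 complement genes as CPM (y axis from 0, own scale per panel) in each Con (blue) and Van (red) library, with points in the order of replicates 1, 2 and 3 and a bar for the mean ± SD (n = 3). C5ar1, C1qb and Cfp are the panels in which every Van point lies above every Con point.

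Of the 9 genes, C5ar1 alone rose in the Van group by the edgeR test, 1.56-fold (95% interval 1.31 to 1.86), and the remaining 8 did not pass. The C5ar1 call was lost in 9 of 14 other settings. All 9 passed the filter on low counts. This made 1 of 9 called, against 2.00% of all genes tested called in either direction and 1.08% called higher in the Van group. By fold change 6 of the 9 were higher and 3 lower in the Van group, with a median log2 fold change of 0.24 compared to -0.0014 over all genes tested, and 4 had an unadjusted p under 0.05, against 16.5% of all genes. The Van libraries lay wholly above the Con libraries for C1qb, Cfp and C5ar1, or 3 of 9 genes, whereas 22.5% of all genes had groups that did not overlap and 11.5% had the Van libraries above. With DESeq2, which called 8.41% of the genes given an adjusted p, 2 were called, C5ar1 and C1qb, of the 8 genes to which it gave one (C3ar1 had none).

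**Figure D2:**
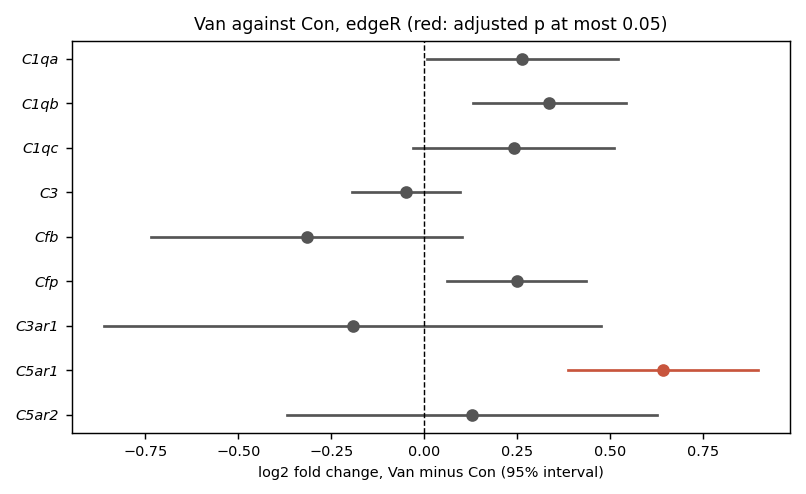
Log2 fold change (x axis, Van minus Con) of each complement gene from the edgeR fit, with its 95% interval as a line and the 1 gene called in red. The interval of C5ar1 runs from 0.39 to 0.90, and those of C1qc, C3, Cfb, C3ar1 and C5ar2 include 0.

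The C1q chains were the most abundant of the 9 genes per unit of transcript length, with 268 FPKM for C1qa, 257 for C1qc and 246 for C1qb on average over the 6 libraries. Their genes lie side by side on the minus strand of chromosome 4 in GRCm38, C1qb at 136880129 to 136886187, C1qc at 136889804 to 136893065 and C1qa at 136895917 to 136898803, with 3616 bases between the first pair and 2851 between the second. All 3 are protein coding, and no exon of another gene overlaps them. The 250 bases before the RefSeq start sites of C1qb and C1qc (GRCm38.p6) are shown as those of neighbouring genes whose products assemble into 1 protein. Both are given 5′ to 3′ along the minus strand, and capitals mark AGGAAG, a core of sites for PU.1, a transcription factor of the myeloid lineage, on either strand.
C1qb, chr4:136886201-136886450: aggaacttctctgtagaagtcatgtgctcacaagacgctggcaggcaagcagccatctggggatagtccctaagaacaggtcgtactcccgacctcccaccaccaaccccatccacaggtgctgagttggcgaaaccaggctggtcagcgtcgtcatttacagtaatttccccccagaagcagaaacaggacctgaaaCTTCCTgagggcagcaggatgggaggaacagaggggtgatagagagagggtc
C1qc, chr4:136892915-136893164: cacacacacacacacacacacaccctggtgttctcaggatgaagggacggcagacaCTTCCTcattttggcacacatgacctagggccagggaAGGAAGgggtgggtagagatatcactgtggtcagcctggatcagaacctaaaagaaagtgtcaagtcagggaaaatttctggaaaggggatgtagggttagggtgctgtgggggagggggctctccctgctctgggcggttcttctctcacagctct
The window of C1qc overlaps the GENCODE span of its own gene, whose start lies further out than that of RefSeq. C1qb held 1 match, 52 bases before the start, and C1qc held 2, at 194 and 157 bases. Among all 32851 promoter windows of this length, 29.5% held the same letters, so that a match is common and marks no known site. Neither window held TTGCNNAA, a C/EBP motif present in 9.56% of windows, TGANTCA, an AP-1 motif present in 6.75%, or the interferon response motif (GAAA repeated after any 2 bases), present in 2.98%.

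C1qb was measured at 272, 278 and 295 CPM in the Con libraries, listed as replicates 1 to 3, and at 325, 408 and 332 CPM in the Van libraries, listed likewise. The groups did not overlap, and Van replicate 2 was the highest library. The log2 fold change was 0.34 ± 0.09 (SE), which did not pass with edgeR (adjusted p = 0.107) and passed with DESeq2 (adjusted p = 0.00875). C1qa was measured at 258, 309 and 337 CPM in the Con libraries and 328, 412 and 346 CPM in the Van libraries. Here Con replicate 3 lay above Van replicate 1, and the log2 fold change of 0.26 ± 0.11 (SE) did not pass with edgeR (adjusted p = 0.292). C1qc was measured at 297, 333 and 381 CPM in the Con libraries and 365, 466 and 364 CPM in the Van libraries. Con replicate 3 lay above Van replicates 1 and 3, and the log2 fold change of 0.24 ± 0.12 (SE) did not pass with edgeR either (adjusted p = 0.362). Without Van replicate 2, the log2 fold changes of C1qa and C1qc were 0.16 and 0.11.

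The proportions of the chains were followed as ratios within each library. The log2 FPKM ratio of C1qa to C1qc departed from its mean by at most 0.0748, that of C1qa to C1qb by at most 0.134 and that of C1qb to C1qc by at most 0.162. The ratio of C1qa to C1qb was 0.995, 1.17 and 1.20 in the Con libraries and 1.06, 1.06 and 1.09 in the Van libraries, and the mean log2 ratio differed by -0.06 between the groups. The ratio of C1qc to C1qb was 0.988, 1.09 and 1.17 in the Con libraries and 1.02, 1.03 and 0.991 in the Van libraries, with a difference of -0.09. Leaving out Con replicate 1 gave differences of -0.15 for both ratios, and leaving out Con replicate 3 gave -0.01 for C1qa to C1qb and -0.03 for C1qc to C1qb. The groups overlapped in both ratios (2-sided exact permutation test, adjusted p = 0.4 for both over 4 ratios tested). With 3 libraries against 3, the smallest p this test can give is 0.1, so it could not have shown a difference.

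The C1q genes and the macrophage markers shared only part of their order across the libraries. The summed level of C1qa, C1qb and C1qc was 827, 920 and 1013 CPM in the Con libraries and 1018, 1287 and 1042 CPM in the Van libraries. The 14 markers of red pulp and marginal zone macrophages summed to 3757, 4486 and 4362 CPM in the Con libraries and 4276, 5473 and 4699 CPM in the Van libraries. For both sums Van replicate 2 was the highest library, Van replicate 3 the second and Con replicate 1 the lowest. The libraries between stood in reverse order. Van replicate 1 lay above all Con libraries for C1q but below Con replicates 2 and 3 for the markers. Per 100 CPM of macrophage markers, the C1q genes had 22.0, 20.5 and 23.2 CPM in the Con libraries and 23.8, 23.5 and 22.2 CPM in the Van libraries, so the groups overlapped on this scale while the lowest 2 values were from Con libraries. None of the 14 markers passed in edgeR (2.00% of all genes did), 6 had an unadjusted p under 0.05 (16.5% of all genes did), and 10 were higher and 4 lower by fold change. Spic, the transcription factor that red pulp macrophages need, had 94.8 ± 2.70 CPM in the Con group and 99.3 ± 16.8 in the Van group (mean ± SD, n = 3), Adgre1 (F4/80) 426 ± 25.9 and 480 ± 39.3 CPM, and the adhesion molecule Vcam1 624 ± 72.6 and 856 ± 90.9 CPM. Of the 6 markers below the unadjusted cutoff, Siglec1 alone was lower, with a log2 fold change of -0.455. It had 108 ± 16.6 CPM in the Con group and 78.5 ± 13.7 CPM in the Van group (mean ± SD, n = 3), and the groups overlapped. The macrophage sum was mostly Hmox1 (1067 and 1233 CPM on average), Slc40a1 (626 and 672), Axl (551 and 602), Vcam1 and Adgre1. The part of macrophages in the C1q values was not tested.

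**Figure D3:**
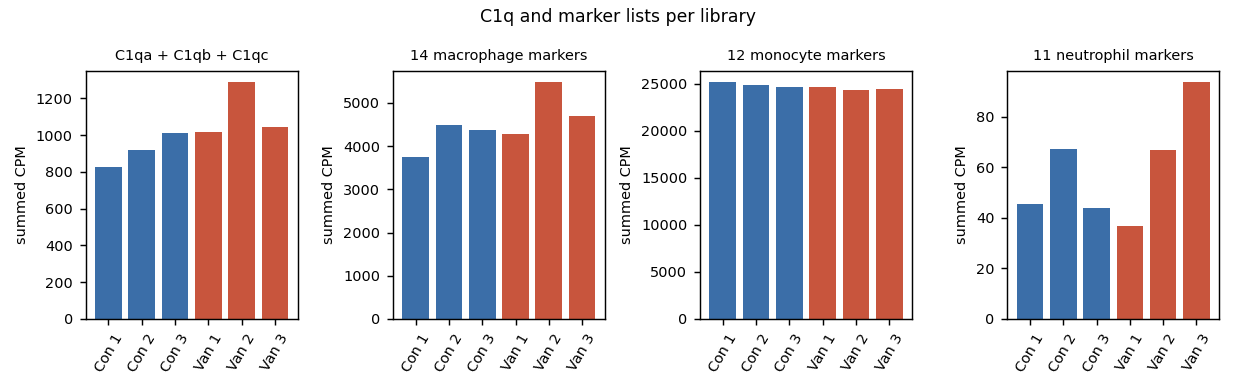
Summed CPM (y axis from 0) of the 3 C1q genes and of the macrophage, monocyte and neutrophil marker lists in each library (x axis, Con in blue, Van in red). Van replicate 2 is highest for C1q at 1287 CPM and for the macrophage markers at 5473 CPM, whereas the monocyte sums stay between 24350 and 25140 CPM.

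C3, the component on which all routes meet, did not differ detectably between the groups. It lies on chromosome 17 (57203970 to 57228136, minus strand). It was measured at 928, 977 and 921 CPM in the Con libraries and 844, 917 and 970 CPM in the Van libraries, and the groups overlapped. The log2 fold change was -0.05 ± 0.06 (SE; 95% interval -0.19 to 0.10; edgeR adjusted p = 0.778). In FPKM, C3 had 154 ± 4.22 in the Con group and 150 ± 10.9 in the Van group (mean ± SD, n = 3). Among the 9 genes C3 had the most counts, 39820 to 58570 per library, and the narrowest interval.

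The alternative pathway genes Cfp and Cfb differed from each other in level and in the sign of their change, and neither passed. Cfp, on the X chromosome (20925454 to 20931555, minus strand), was measured at 283, 303 and 298 CPM in the Con libraries and 308, 383 and 361 CPM in the Van libraries. All Van libraries lay above all Con libraries, Van replicate 1 by only a little. The log2 fold change was 0.25 ± 0.08 (SE), with an adjusted p of 0.178 in edgeR and 0.0505 in DESeq2. Cfb, on chromosome 17 (34856374 to 34862518, minus strand), was measured at 68.5, 52.2 and 77.7 CPM in the Con libraries and 64.1, 54.9 and 40.3 CPM in the Van libraries. The groups overlapped, with Van replicate 3 the lowest and Con replicate 3 the highest, and the log2 fold change of -0.32 ± 0.18 (SE) did not pass with edgeR (adjusted p = 0.444). Exons of Cfb are shared with Gm20547 on the same strand, a transcript that reads through from the adjacent gene C2, which ends 85 bases from Cfb. Reads from Cfb and that transcript may have been split between them, so the level of Cfb is uncertain to that extent.

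The anaphylatoxin receptors spanned a wide range of levels. C5ar1 and C5ar2 are neighbours on the minus strand of chromosome 7, C5ar2 at 16234585 to 16244154 and C5ar1 at 16246743 to 16259540, with 2588 bases between them. The RefSeq promoters of this pair are shown because the adjacent genes differed in level and only C5ar1 was called. Capitals mark AGGAAG (PU.1) in both and TTGCNNAA (C/EBP, a factor family of myeloid cells) in C5ar2, on either strand, and each sequence is given 5′ to 3′ along the minus strand of GRCm38.p6.
C5ar1, chr7:16259339-16259588: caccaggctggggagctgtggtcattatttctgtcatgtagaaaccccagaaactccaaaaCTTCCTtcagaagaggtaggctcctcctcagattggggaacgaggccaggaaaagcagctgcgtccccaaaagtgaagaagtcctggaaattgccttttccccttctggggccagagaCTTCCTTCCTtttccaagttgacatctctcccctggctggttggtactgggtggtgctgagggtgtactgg
C5ar2, chr7:16244155-16244404: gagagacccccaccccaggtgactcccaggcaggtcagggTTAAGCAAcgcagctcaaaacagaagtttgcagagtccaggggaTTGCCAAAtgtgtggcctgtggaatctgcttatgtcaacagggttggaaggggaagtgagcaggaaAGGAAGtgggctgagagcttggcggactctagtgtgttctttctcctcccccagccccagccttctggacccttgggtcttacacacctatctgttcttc
The window of C5ar1 lies mostly within the GENCODE span of the gene given above, since the RefSeq start is further inside. C5ar1 held 3 matches to AGGAAG, at 189, 71 and 67 bases before the start, the last 2 overlapping each other. C5ar2 held 1 at 100 bases, and 2 matches to the C/EBP motif at 210 and 166 bases. A second RefSeq start of C5ar2 lies inside the gene, and the 250 bases before it held 1 match to AGGAAG. Neither of the windows shown held the AP-1 or the interferon response motif. Of the other promoters matched, that of C3 held 1 C/EBP motif, that of C3ar1 held 1 AP-1 motif and that of Cfp none of the 4. Promoters were matched for 7 of the 9 genes, and those of C1qa and Cfb were not used here.

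C5ar1, the main receptor for C5a on myeloid cells, was measured at 40.4, 46.4 and 39.9 CPM in the Con libraries and 76.9, 63.0 and 57.7 CPM in the Van libraries. Every Van library lay above every Con library, with Van replicate 1 the highest, and the gap between the groups exceeded the whole range of the Con libraries. The group means were 42.2 ± 3.59 and 65.9 ± 9.92 CPM (mean ± SD, n = 3), resting on 1727 to 4706 counts per library. The log2 fold change was 0.64 ± 0.11 (SE), with an adjusted p of 0.0319 in edgeR and 9.6e-06 in DESeq2. In FPKM the group means were 13.97 ± 1.21 and 21.8 ± 3.18. The edgeR call was lost without Con replicate 1 (adjusted p = 0.0912), Con replicate 2 (0.0694), Con replicate 3 (0.144), Van replicate 1 (0.0593) or Van replicate 2 (0.121) and was kept without Van replicate 3 (0.0458), and the log2 fold change stayed between 0.52 and 0.73. With limma on log2(FPKM + 1) the log2 fold change was 0.59 and the call was also lost (adjusted p = 0.0886). It was lost as well with the replicate number as a block (log2 fold change 0.63, edgeR adjusted p = 0.0607).

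**Figure D4:**
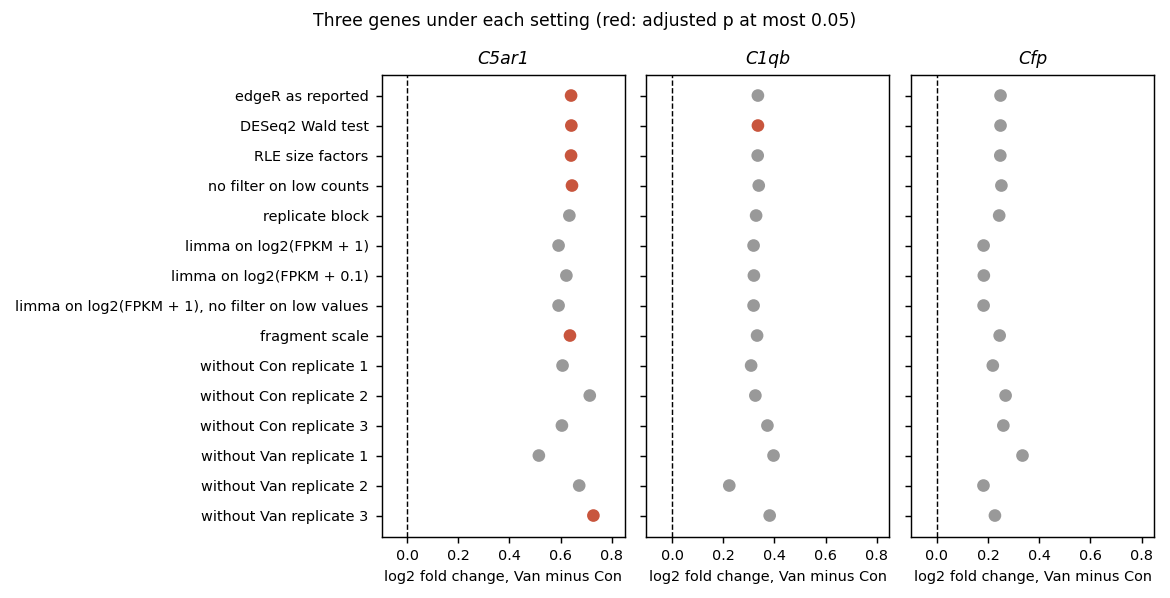
Log2 fold change (x axis, Van minus Con) of C5ar1, C1qb and Cfp under the reported edgeR fit and each of 14 other settings (y axis), with an adjusted p of at most 0.05 in red. All points lie to the right of 0, and C5ar1 is red in 6 settings, C1qb in 1 and Cfp in none.

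Neutrophils also carry C5a receptors, and the isolation selects against cells with Ly-6G. Their markers summed to 44.0 to 67.3 CPM in the Con group and 36.7 to 93.6 CPM in the Van group. Ly6g, the marker that defines mouse neutrophils, was at 0 in every library, and the granule protein genes Camp and Ngp averaged 0.130 and 1.56 CPM in the Con group and 0.157 and 0.625 CPM in the Van group. Most of the sum came from Mmp8, at 42.2 ± 16.1 CPM in the Con group and 59.7 ± 28.1 CPM in the Van group (mean ± SD, n = 3). Of the 9 neutrophil markers that could be tested, only Mmp8 was higher by fold change and 8 were lower. Their median log2 fold change was -0.72, and none was called. The part of neutrophils in the C5ar1 values was not tested.

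C5ar2, the second C5a receptor, was measured at 3.68, 7.04 and 5.57 CPM in the Con libraries and 5.64, 6.26 and 5.94 CPM in the Van libraries. The Van libraries fell within the range of the Con libraries, and the log2 fold change of 0.13 ± 0.22 (SE; 95% interval -0.37 to 0.63) did not pass with edgeR (adjusted p = 0.839). Without Con replicate 1, the lowest library, it was -0.09. Exons of C5ar2 overlap Gm26473 on the same strand. C3ar1, the C3a receptor, on chromosome 6 (122847138 to 122856161, minus strand), was the lowest of the 9 genes, with 53.1 to 110 counts per library. It was measured at 1.02, 1.83 and 1.83 CPM in the Con libraries and 1.16, 1.41 and 1.53 CPM in the Van libraries. The groups overlapped, and the log2 fold change of -0.19 ± 0.29 (SE; 95% interval -0.86 to 0.47) did not pass with edgeR (adjusted p = 0.818).

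The ratio of C5ar1 to C5ar2 within a library was 14.8, 9.17 and 9.95 in the Con group and 18.9, 13.6 and 13.5 in the Van group, and that of C5ar1 to C3ar1 was 66.8, 43.6 and 37.2 in the Con group and 112, 76.2 and 63.9 in the Van group. Con replicate 1 overlapped the Van libraries in both ratios. The mean log2 ratio differed by 0.45 and 0.78 between the groups, with p = 0.3 and 0.2 in a 2-sided exact permutation test (adjusted p = 0.4 for both), whose smallest p of 0.1 leaves it unable to show a difference. Over libraries left out in turn, the first difference ran from 0.29 (without Van replicate 1) to 0.66 (without Con replicate 1) and the second from 0.55 to 1.02 (without the same libraries).

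Set in order of mean FPKM over the 6 libraries, the genes ran from C1qa, C1qc and C1qb through Cfp at 167 and C3 at 152 to Cfb at 18.7, C5ar1 at 17.9, C5ar2 at 1.37 and C3ar1 at 0.285 FPKM. Neighbours in this order were compared within each library by a 2-sided exact permutation of signs, which can give no p under 0.0312, and p-values were adjusted over the 8 pairs. Because the order came from the same libraries, these p-values describe how steady it was and do not test it independently. The smallest p, 0.05 after adjustment, was reached for C1qa over C1qc (only 1.04-fold), C1qb over Cfp (1.47-fold), C3 over Cfb (8.31-fold), C5ar1 over C5ar2 (12.9-fold) and C5ar2 over C3ar1 (4.82-fold), each in 6 of 6 libraries. C1qc and C1qb (adjusted p = 0.208, exact permutation), Cfp and C3 (0.25) and Cfb and C5ar1 (0.75) did not differ beyond the spread between libraries. The last pair stood in opposite orders in the groups, with Cfb above C5ar1 in all Con libraries and below it in all Van libraries. The mean log2 ratio of Cfb to C5ar1 was 0.55 in the Con group and -0.40 in the Van group, a difference that was not tested.

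**Figure D5:**
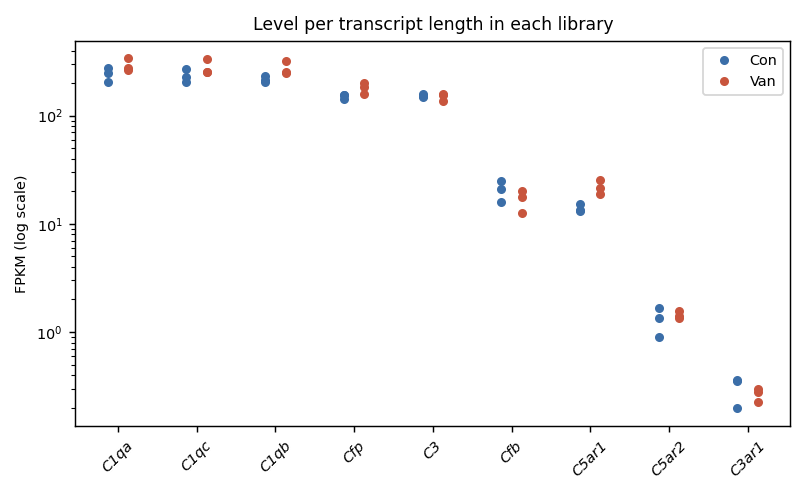
FPKM (y axis, log scale) of each complement gene in each Con (blue) and Van (red) library, with genes ordered by their mean over the 6 libraries. The C1q chains, Cfp and C3 all lie above 100 FPKM, Cfb and C5ar1 between 12.5 and 25.3 FPKM, and C5ar2 and C3ar1 at 1.68 FPKM or less.

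Genes with the most similar pattern were sought among 8409 other genes with a mean of at least 10 CPM by Pearson's r of log2 CPM, a description over only 6 libraries that share their groups and scaling. Those nearest to the mean of the C1q chains were Mrps36 (r = 0.993), Rhno1 (0.987) and Hnrnpc (0.985). Near to C5ar1 were Dym (0.995) and Rap2a (0.995), whose own log2 fold changes were 0.14 and 0.25. Nearest to C3 were Cd300lg, BC094916 and Dusp6, to Cfb Plekho2, Scd2 and Cic, and to Cfp Wars2, Mrfap1 and Gda. For C3ar1 they were Keap1, Ergic3 and Add1 and for C5ar2 Zfp770, Gm2260 and Eral1, and over all the genes named the r lay between 0.98 and 0.996. None of these genes was called with edgeR.

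The rest of the complement system was read from a list of 59 genes, of which 57 were in the matrices, 15 were at 0 in every library and 36 could be tested. None of the 36 was called by edgeR, with 19 higher and 17 lower by fold change, a median log2 fold change of 0.02 and 7 with an unadjusted p under 0.05, against 2.00% called and 16.5% with such a p over all genes. The groups did not overlap for 8 of them, against 22.5% of all genes. DESeq2 called 5, against 8.41% of all genes given an adjusted p, and the 5 are named here after their values were seen. These were the C1 protease gene C1ra (log2 fold change -0.57), the classical convertase component C2 (0.47), calreticulin (Calr, 0.31), the C1q-associated surface protein gene Cd93 (0.28) and Itgam (-0.21), the alpha chain of complement receptor 3. C1ra and C1rb are near-identical, C2 shares exons with the read-through transcript Gm20547 and Itgam with Gm49368 on its own strand, so these 3 values are uncertain. Of the other genes named below, near-identical sequence lies in Crry-ps for Cr1l, in Gm14699 for Itgb2, in Cd55b for Cd55 and in the antisense gene A330023F24Rik for Cd46, and Fcna and Hc overlap genes on the opposite strand.

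In the classical and lectin pathways, 9 of 15 genes could be tested. Fcna, the ficolin made by macrophages, was the most abundant at 162 FPKM, with 233 ± 28.1 CPM in the Con group and 294 ± 53.8 CPM in the Van group (mean ± SD, n = 3; edgeR adjusted p = 0.265). C2 had 14.2 ± 2.22 and 19.6 ± 0.846 CPM (adjusted p = 0.0828 in edgeR), with all Van libraries above all Con libraries. C4b, which is near-identical to C4a, had 14.2 ± 3.60 and 17.9 ± 3.39 CPM. Cfd, which encodes factor D, the protease that cleaves factor B, was at 0 in every library.

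Of 7 terminal pathway genes, 2 could be tested. C6 was well expressed at 68.8 ± 4.72 and 74.6 ± 13.7 CPM (mean ± SD, n = 3), whereas Hc, the mouse C5 gene, averaged 0.154 CPM in the Con group and 0.0784 CPM in the Van group, and C8g had 1.34 and 1.76 CPM. C7, C8b and C9 were at 0 in every library. The 4 soluble regulators that could be tested were all lower by fold change and none was called. Clusterin (Clu), which holds back assembly of the terminal complex, had 12.3 ± 2.71 CPM in the Con group and 9.83 ± 0.979 CPM in the Van group (mean ± SD, n = 3; edgeR adjusted p = 0.380).

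Membrane regulators were led by Cr1l, which encodes the rodent regulator Crry, at 93.9 ± 3.10 CPM in the Con group and 92.8 ± 4.25 CPM in the Van group (mean ± SD, n = 3; log2 fold change -0.02, edgeR adjusted p = 0.937). Cd55, which speeds the decay of convertases, had 4.43 ± 0.744 and 6.39 ± 1.23 CPM (adjusted p = 0.213 in edgeR), and Cd46 had 3.77 and 3.25 CPM. Among other receptors, Itgb2, the beta chain shared by complement receptors 3 and 4, stood at 489 FPKM with a log2 fold change of 0.04 ± 0.07 (SE). Itgam had 1125 ± 16.5 CPM in the Con group and 971 ± 31.2 CPM in the Van group, and all Van libraries lay below all Con libraries (adjusted p = 0.0741 in edgeR). Calr had 439 ± 27.4 and 544 ± 74.8 CPM (adjusted p = 0.157 in edgeR). Downstream of the anaphylatoxin receptors, Gnai2, the inhibitory G protein alpha subunit, had 1018 ± 10.9 and 1051 ± 36.9 CPM, and Adrbk1, the receptor kinase also named Grk2, had 690 ± 8.01 and 743 ± 21.9 CPM. Arrb2, encoding an arrestin, had 147 ± 7.70 and 155 ± 6.87 CPM. The log2 fold changes of the 8 signaling genes tested had a median of 0.04, and none was called.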

How the data were processed

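PolyA RNA from splenic monocytes of 3 Con and 3 Van mice was sequenced. Per the methods and the submitters' processing notes, the authors aligned paired reads to GRCm38 with HISAT2 2.2.1 and SAMtools 1.9, computed FPKM with StringTie 2.1.3 and Ballgown, and derived gene counts with tximport. The deposited FPKM are per transcript length and library. The deposited counts are estimated counts, since 52.3 to 55.0% of them per library lay within 0.05 of a whole number once multiplied by 75 (9.56 to 9.98% when multiplied by 74). Such values would arise from base coverage scaled by 75-base reads, but the methods state reads of 100 bases, so the total may not be the number of reads. No column was left unmatched to a sample. The annotation release was not given in the sources used here, and positions are from GENCODE M21.

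Counts were rounded, filtered (filterByExpr, minimum count 10), scaled by TMM and tested with edgeR 4.0.16 (quasi-likelihood, group only, R 4.3.3), with Benjamini-Hochberg adjustment over all genes tested. Alternatives were DESeq2 1.42.0, the Wald test the authors used (1.38.3 in their processing), RLE scaling, no filter, the replicate number as a block, counts on a fragment scale, limma 3.58.1 on FPKM after quantile normalization and log2 transformation with a pseudocount of 1 or 0.1 (with or without a minimum mean of 1 FPKM), and leaving out each library. Motifs were searched on both strands of 250 bases before RefSeq starts. Genes were called near-identical where their transcripts matched by BLAST over at least 200 bases at 95% identity or more. The fits were tested on simulated data.

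Named were all 9 genes, other complement genes called or among the 3 with the highest FPKM of each list, the first 3 genes of the monocyte, macrophage and neutrophil marker lists (of the others, sums and called genes are given), and the 3 genes most like each gene in pattern. Any other gene named was chosen after its values were seen. Genes and lists were chosen with earlier results of these data known. Some genes that this rule names are not reported here.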

Additional observations from a re-analysis of the deposited data

How the results depend on the processing

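Same-numbered libraries had deviations from their group means that correlated at 0.0654, -0.0281 and -0.15, and differently numbered libraries at -0.114 to 0.142. The replicate numbers thus showed no pairing, although 3 libraries per group are too few to settle whether there was any. With the replicate block 110 genes were called in place of 322, 0 of the 9 complement genes were called, and C5ar1 had a log2 fold change of 0.63 (edgeR adjusted p = 0.0607). DESeq2 called 983 genes, 2 of the 9 and 5 of the other complement genes. The limma fits called 46 genes at a pseudocount of 1, 37 at 0.1 and 24 without a filter on low values, with 0 of the 9 in each, and C3ar1 was below the FPKM filter in the first pair. Leaving out 1 library gave 21 genes (without Van replicate 2) to 136 (without Con replicate 1) and 0 to 1 of the 9. Without Van replicate 1, C3 had a log2 fold change of 0.0036 (range over libraries left out -0.10 to 0.0036), and without Con replicate 1, C5ar2 had -0.0898 (range -0.0898 to 0.363). In the Con libraries alone the log2 ratio of Cfp to C3 was -0.0242, and in the Van libraries alone that of Cfb to C5ar1 was -0.40. The cause of these changes was not tested. RLE scaling, no count filter and the fragment scale changed no call among the 9, and C1qa, C1qb, C1qc, Cfb, Cfp and C5ar1 kept their direction in all 14 alternatives. Sizes moved more: over libraries left out, the log2 fold change ran from 0.16 to 0.35 for C1qa (lowest without Van replicate 2), from 0.11 to 0.34 for C1qc (lowest without Van replicate 2), from -0.47 to -0.15 for Cfb (nearest to 0 without Van replicate 3) and from -0.43 to -0.06 for C3ar1 (nearest to 0 without Con replicate 2), none of them called. The 3 libraries per group limit what could be called.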

Other observations

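Among the other marker lists, B and plasma cell genes summed to 112 to 143 CPM in the Con group and 88.5 to 110 CPM in the Van group, T cell genes to 41.1 to 54.7 and 32.1 to 43.8 CPM, dendritic cell genes to 168 to 211 and 141 to 171 CPM, platelet genes to 16.2 to 33.2 and 14.6 to 19.7 CPM, and eosinophil and basophil genes to 1.22 to 2.95 and 1.22 to 1.7 CPM. Clec9a, of conventional dendritic cells, fell from 10.1 ± 1.37 to 4.66 ± 0.424 CPM (mean ± SD, n = 3; edgeR adjusted p = 0.0132), and Klrk1, of natural killer cells, from 31.4 ± 6.75 to 16.8 ± 3.55 CPM (edgeR adjusted p = 0.0495). Of the 7 dendritic cell genes 1 was higher and 6 lower by fold change, the former Flt3 at 35.7 and 42.4 CPM, with the Van libraries above the Con libraries. Of the natural killer cell genes 4 could be tested, 1 higher and 3 lower by fold change. Apart from Klrk1 they were near 0, with Ncr1 at 0.0889 and 0.0262, Nkg7 at 0.175 and 0.111, and Klrb1c at 0.471 and 0.640 CPM. Pecam1 rose from 57.9 ± 6.71 to 128 ± 38.6 CPM (edgeR adjusted p = 0.0308), while Cdh5, which defines endothelial cells, averaged 0.993 and 0.746 CPM. Of the erythroid genes, Alas2, Hbb-bs, Hba-a1 and Hba-a2 rose, by log2 fold changes of 2.08, 1.87, 1.76 and 1.81 (edgeR adjusted p = 0.0170, 0.0294, 0.0403 and 0.0372).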
